A study of Mus musculus with 9 samples.

Results

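Dystrophin and the proteins that hold it at the muscle membrane were represented by 8 genes chosen by symbol: Dmd, Utrn, Dag1, Sgca, Sgcb, Sgcd, Sntb1 and Dtna. All 8 were listed in both gene tables of the series, among 22631 genes for Mutant against Control and 27775 genes for PT against PUT. RNA was measured in satellite cells, which are muscle stem cells, from hindlimb muscle of mice aged 9 weeks. There were 3 libraries each of Control, Mutant and Cre Control. Control mice received oil. Mutant mice, deficient for Uhrf1 in satellite cells, received tamoxifen, which switches on Cre, as 150 µl of a 20 mg/ml solution injected on 5 days. Cre Control mice also received tamoxifen, and no gene values labelled as theirs were analysed here. Cells of Control and Mutant were plated at 5000 per cm2 and cultured for 3 days. The labels do not name the promoter that drives Cre or say how many animals stand behind a library, so p-values measure the spread between libraries, which may be technical.

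The dystrophin-associated complex spans the membrane of the muscle fibre. Dystrophin (Dmd), or its paralog utrophin (Utrn), binds actin inside the cell and the tail of dystroglycan (Dag1) at the membrane. Dystroglycan binds laminin outside the cell through its sugar chains, the sarcoglycans (Sgca, Sgcb, Sgcd and others) stabilise it, and syntrophins (Sntb1) and dystrobrevins (Dtna) hold signalling proteins on the inner side. Loss of several of these proteins causes muscular dystrophy. In activated satellite cells dystrophin is also known to act in cell polarity and asymmetric division.

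For genes, the files give group means and comparisons, with no value per library. Levels are TPM, transcripts counted per gene after scaling for gene length and library depth. The mean TPM behaved as averages of 3 libraries: 3 times the mean was whole at 4 decimals (tolerance 0.05 of the last decimal) for 94.4% of 6947 Control means between 10 and 100 TPM and 94.7% of 7159 Mutant means, against 32.3% of the Control means for a multiple of 2. The library labelled Control 3 stood apart in the repeat counts. IAPEz-int, an endogenous retrovirus, took 13.1% of its repeat counts, 0.501 and 0.675% in the other Control libraries, and 9.29 to 16.3% in Mutant. That library had no weight in the mean levels of the authors' deposited table for repeats, which the other 5 libraries reproduced within a relative error of 4.76e-10. As the series has 3 Control libraries, a Control mean TPM over 3 libraries would include the library labelled Control 3. The Control TPM levels and TPM ratios below, in the text and the plot of mean TPM, are therefore read as including it. The sources used here do not say whether that library entered the gene test, and no gene result could be computed without it.

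Uhrf1, the targeted gene, averaged 118 TPM in Control and 20.4 TPM in Mutant in the authors' deposited Mutant table. Its deposited log2 fold change was −2.47, and its test estimate, a term defined below, was −3.12 (SE 0.60). That SE exceeded that of 99.3% of the 3501 genes within a factor of 2 of its mean TPM, whose median was 0.08. Oil and tamoxifen follow the same split, so treatment and loss of Uhrf1 cannot be told apart. The labels place the arms PT and PUT in no group, and in the authors' deposited PT table Uhrf1 had a ratio of 0.0625 (SE 0.27 on the log2 scale), read as PT over PUT from the order of the name. Whether those arms share libraries with Control, Mutant or Cre Control is unknown. Both sets of values therefore stand side by side, and their difference was not tested. For Mutant against Control, the deposited log2 fold change is the ratio of mean TPM plus 1, but the deposited standard error (SE) belongs to the estimate behind the test. That estimate, the deposited statistic times the SE, is called the test estimate. Genes with a deposited adjusted p below 0.05 are written as having risen or fallen.

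Sgca rose in Mutant (test estimate 1.05, SE 0.13) about as much as Sntb1 fell (−1.06), but the SE of Sntb1 was wider, at 0.35. Utrn rose slightly, while Dmd, Dag1, Sgcb, Sgcd and Dtna did not pass. So 2 of the 8 rose and 1 fell, where 17.1% of all genes of the authors' deposited Mutant table were called, 9.02% higher and 8.11% lower. The median test estimate of the 8 was −0.08, beside 0.01 over 22627 genes with an estimate. Between PT and PUT, Dmd, Sgca and Sgcb rose and Utrn and Dag1 fell. These are 3 and 2 of the 8, where 47.2% of all genes of the authors' deposited PT table were called, 25.1% higher and 22.1% lower. The median log2 fold change of the 8 was 0.07, below the 0.14 over all genes and above the −0.01 over the 19118 genes with a mean count of at least 10, which Sgcd does not reach. Among the 8, only Sgca was called in the same direction in both authors' deposited tables. How many of all genes were called in both, in like or opposite directions, was not computed. Calls in both comparisons, here and in the lists below, therefore have no such background.

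**Figure D1:**
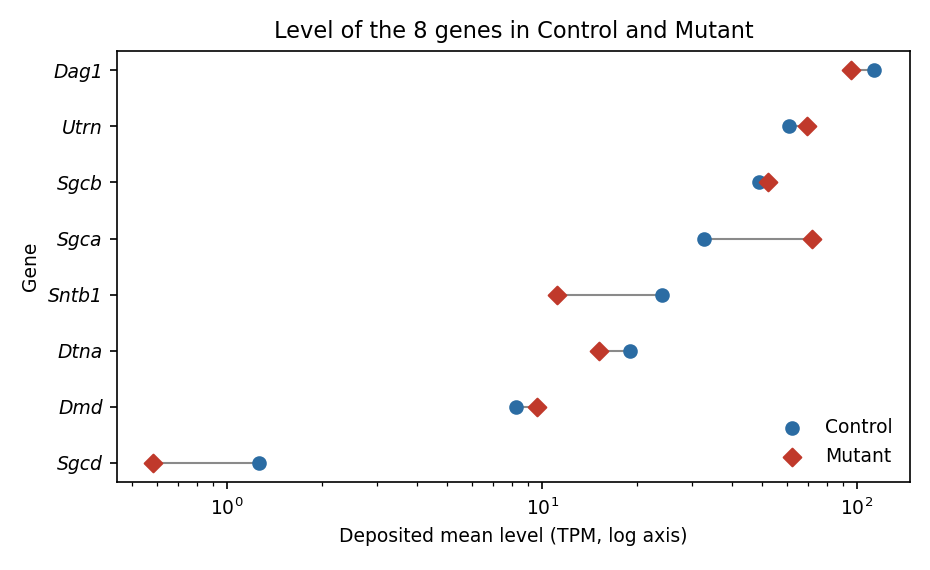
Deposited mean TPM (log axis) of each of the 8 genes in Control (circles) and Mutant (diamonds), joined by a line; no value per library is given, so there are no error bars. Dag1 was the most abundant in both groups and Sgcd the least, and Sgca moved from 32.6 to 71.9 TPM.

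Per length, Dag1 was the most abundant in Control at 113 TPM, above 93.1% of all genes by its overall mean. Then came Utrn (61.0 TPM), Sgcb (48.9 TPM), Sgca (32.6 TPM), Sntb1 (24.1 TPM), Dtna (19.0 TPM), Dmd (8.23 TPM) and Sgcd (1.26 TPM) as means of the authors' deposited Mutant table. Utrophin was thus listed at a higher level than dystrophin. In Mutant, Sgca (71.9 TPM) stood second, above Utrn (69.3 TPM) and Sgcb (52.1 TPM), and Dtna (15.2 TPM) stood above Sntb1 (11.1 TPM) in the authors' deposited Mutant table. Which neighbours in this order differ beyond their spread could not be judged without values per library.

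Dmd averaged 8.23 TPM in Control and 9.66 TPM in Mutant by the authors' deposited Mutant table. The test estimate was 0.04 (SE 0.18, 95% interval −0.31 to 0.38, adjusted p = 0.934), while the TPM ratio gave 0.21. From a mean normalised count of 121, Dmd rose for PT against PUT by 1.27 in the authors' deposited PT table (SE 0.22, interval 0.83 to 1.70, adjusted p = 5.92e-08), the largest log2 difference of the 8 there. Utrn rose in Mutant, from 61.0 to 69.3 TPM, by a test estimate of 0.15 in the authors' deposited Mutant table (SE 0.05, interval 0.06 to 0.24, adjusted p = 0.0137). That SE was small for its level: 0.631% of the 3644 genes within a factor of 2 of its mean TPM had a smaller one. Utrn fell by 0.21 for PT against PUT in the authors' deposited PT table (SE 0.06, interval −0.34 to −0.09, adjusted p = 0.00184). Utrn was thus called in opposite directions in the 2 comparisons.

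**Figure D2:**
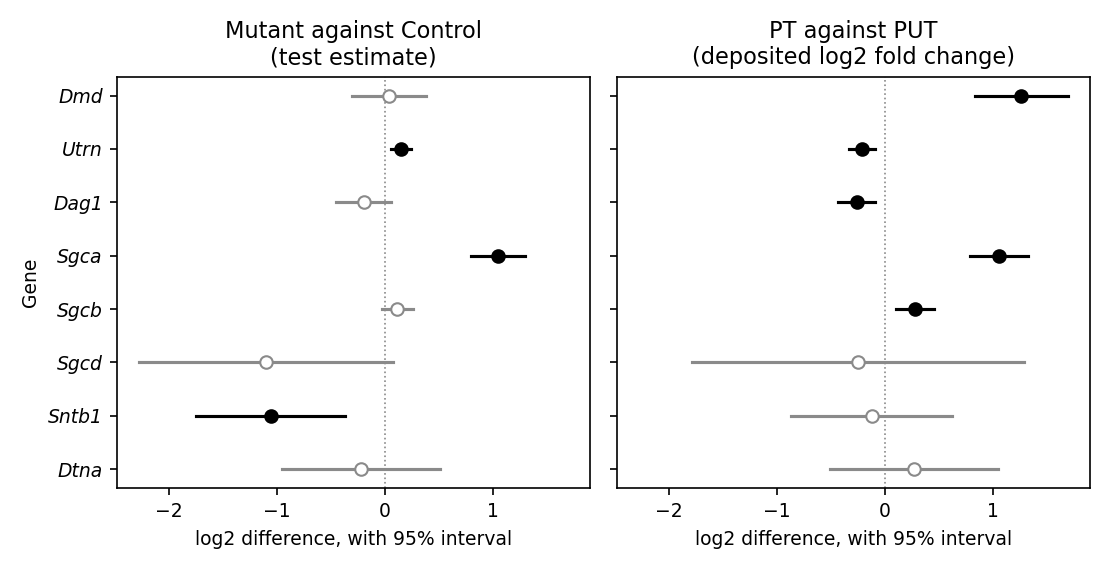
Log2 differences of the 8 genes from the authors' deposited tables, Mutant against Control on the left (test estimate) and PT against PUT on the right, with 95% intervals; filled points had an adjusted p below 0.05. Sgca lay near 1 in both panels, Dmd near 0 on the left and at 1.27 on the right.

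Dystroglycan, the receptor that both paralogs hold, averaged 113 TPM in Control and 96.0 TPM in Mutant. The test estimate of Dag1 was −0.20 in the authors' deposited Mutant table (SE 0.13, interval −0.45 to 0.06, adjusted p = 0.405). Dag1 fell by 0.26 for PT against PUT in the authors' deposited PT table (SE 0.09, interval −0.43 to −0.09, adjusted p = 0.0075). The SE in the Mutant comparison was above that of 92.6% of the 2515 genes within a factor of 2 in TPM, whose median SE was 0.07.

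Alpha-sarcoglycan (Sgca) is a membrane glycoprotein of striated muscle, mutated in a limb-girdle muscular dystrophy. Its mean went from 32.6 to 71.9 TPM, a ratio of 2.21, and the test estimate was 1.05 in the authors' deposited Mutant table (SE 0.13, interval 0.79 to 1.30, adjusted p = 6.46e-14). Sgca also rose for PT against PUT, by 1.06 in the authors' deposited PT table (SE 0.14, interval 0.79 to 1.33, adjusted p = 2.07e-13). Sgcb, the beta subunit of the same sarcoglycan unit, averaged 48.9 and 52.1 TPM in Control and Mutant (test estimate 0.11, SE 0.07, interval −0.03 to 0.26, adjusted p = 0.382 by the authors' deposited Mutant table). It rose by 0.28 for PT against PUT (SE 0.09, interval 0.11 to 0.46, adjusted p = 0.00439 by the authors' deposited PT table). The intervals of Sgca and Sgcb did not overlap in either comparison. Sgcd, the delta subunit, was low, at 1.26 and 0.583 TPM (test estimate −1.10, SE 0.60, interval −2.28 to 0.08, adjusted p = 0.252 by the authors' deposited Mutant table). Its mean normalised count was 5.92 for PT against PUT, with −0.25 (SE 0.79, interval −1.79 to 1.29, adjusted p = 0.832 by the authors' deposited PT table). Hils1, a germ-cell histone gene, lies inside Sgca on the opposite strand. It averaged 1.24 and 1.48 TPM, against 32.6 and 71.9 TPM for Sgca, by the authors' deposited Mutant table (test estimate 0.26, SE 0.80, adjusted p = 0.926).

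Syntrophins and dystrobrevins form the inner part of the complex. Sntb1, the beta1 syntrophin, went from 24.1 to 11.1 TPM, a ratio of 0.463, and fell by a test estimate of 1.06 in the authors' deposited Mutant table (SE 0.35, interval −1.75 to −0.37, adjusted p = 0.019). Its PT against PUT value was −0.12 in the authors' deposited PT table (SE 0.38, interval −0.87 to 0.62, adjusted p = 0.832). Dtna, alpha-dystrobrevin, averaged 19.0 and 15.2 TPM in Control and Mutant (test estimate −0.22, SE 0.37, interval −0.95 to 0.51, adjusted p = 0.902 by the authors' deposited Mutant table). The PT against PUT value of Dtna was 0.27 in the authors' deposited PT table (SE 0.40, interval −0.51 to 1.05, adjusted p = 0.62). Both had wide errors: their SE in the Mutant comparison exceeded that of 96.4% (Sntb1) and 96.5% (Dtna) of genes within a factor of 2 in TPM, where the median was 0.12.

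**Figure D3:**
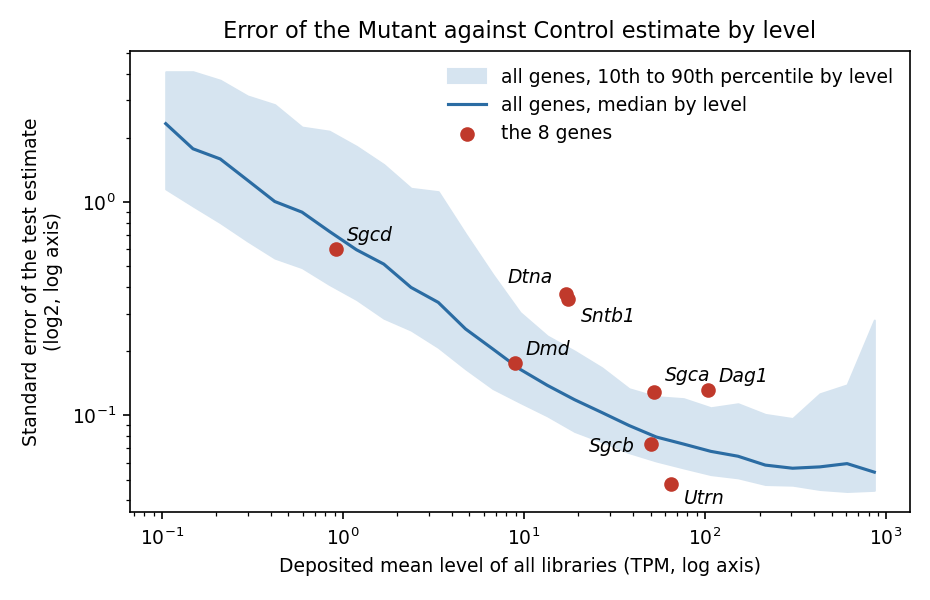
SE of the test estimate of Mutant against Control (log2, log axis) against the deposited mean TPM of all libraries (log axis); the line is the median and the band the 10th to 90th percentile over all genes by level, and red points are the 8 genes. Sntb1 and Dtna lie above the band, Sgca and Dag1 at or just above its upper edge, and Utrn below it.

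Markers of cell types were read beside these values. As a background to their counts, 9.02% of all genes were called higher and 8.11% lower in Mutant, and 25.1% and 22.1% for PT against PUT. Markers of myocyte differentiation, the step at which myoblasts become fibres, also had wide errors, with a median SE of 0.48 over 22 genes. They summed to 5181 TPM in Control and 3323 TPM in Mutant, 20 of 22 test estimates were negative, 0 rose and 1 fell (Actc1, 141 to 28.5 TPM, by the authors' deposited Mutant table), and the highest were Mylpf at 1056 and 545 TPM and Acta1 at 1025 and 708 TPM. Between PT and PUT, 4 of the 22 rose and 1 fell. Satellite cell and myoblast markers were all present and summed to 2797 and 2748 TPM. Of these 10, 3 rose in Mutant (Pax7, Megf10 and Des) and 5 fell (Myod1, Cdh15, Itga7, Vcam1 and Fgfr4), and for PT against PUT 2 rose and 8 fell. Smooth muscle and pericyte markers summed to 468 and 490 TPM, of which Acta2 made up 422 and 421 TPM. In Mutant, 2 of the 9 rose (Rgs5 and Notch3), and Acta2 did not pass (−0.02, SE 0.25, by the authors' deposited Mutant table). Between PT and PUT, 5 of these 9 rose (Rgs5 2.18, Myh11 1.82, Abcc9 1.28, Pdgfrb 0.98 and Cspg4 0.86) and 1 fell (Notch3, −0.34) by the authors' deposited PT table. Myh11 was at only 0.470 and 0.228 TPM in Control and Mutant, but had a mean normalised count of 93.5 for PT against PUT. Pdgfrb, at 3.72 and 4.17 TPM, had a count of 104. Macrophage and leukocyte markers summed to 34.3 and 115 TPM over 8 of 10 listed. Of these, Cd68 and Laptm5 rose and Laptm5 made up 25.1 and 84.8 TPM by the authors' deposited Mutant table. Test estimates were positive for 7 of the 8, among them Fcer1g (3.22 and 19.3 TPM), Cd14 (1.70 and 3.39 TPM), Lyz2 (0.197 and 0.608 TPM) and Csf1r (0.156 and 0.430 TPM), which did not pass. Ptprc, at 0.381 and 0.303 TPM, was the exception. Between PT and PUT 3 of 6 rose (Laptm5 2.00, Fcer1g 4.65 and Lyz2 4.65) and 1 fell (Csf1r, −0.46) by the authors' deposited PT table. Lyz2 had a mean normalised count of only 2.26 there and an SE of 1.67, beside 29.4 and 0.64 for Fcer1g. Csf1r, low in TPM, had a count of 177. Fibroblast markers summed to 296 and 289 TPM, of which Col3a1 made up 179 and 181 TPM, and 1 of 10 was lower (Col1a2). Pdgfra was at 2.21 and 3.09 TPM by the authors' deposited Mutant table. Between PT and PUT 2 of 8 rose (Pdgfra 1.38 and Dcn 4.04) and 2 fell (Col1a2 −1.32 and Col3a1 −1.49) by the authors' deposited PT table. Dcn had a mean normalised count of only 5.63 there and an SE of 1.25. Endothelial markers summed to 29.2 and 24.2 TPM, with 1 of 10 higher (Tek) and 2 lower (Pecam1 and Cdh5), and between PT and PUT 3 of 9 rose and 0 fell. Schwann cell markers summed to 22.5 and 31.6 TPM, with 2 of 8 higher (Mbp and Ngfr), and between PT and PUT 3 of 7 rose and 0 fell. Their part in the results on the 8 genes was not tested, and in bulk RNA fewer cells of a type and less RNA per cell cannot be told apart.

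Promoter sequences are shown for Sgca, which rose in both comparisons, for both starts of Dmd, which rose for PT against PUT, and for Dag1, the most abundant. Each line holds the 250 bases before a start site, 5′ to 3′ on the strand of the gene, from RefSeq (GRCm38.p6). Capitals mark each CANNTG, the E-box that myogenic factors such as MyoD bind, whose letters match on both strands.
Sgca, chr11:94976328-94976577, minus strand: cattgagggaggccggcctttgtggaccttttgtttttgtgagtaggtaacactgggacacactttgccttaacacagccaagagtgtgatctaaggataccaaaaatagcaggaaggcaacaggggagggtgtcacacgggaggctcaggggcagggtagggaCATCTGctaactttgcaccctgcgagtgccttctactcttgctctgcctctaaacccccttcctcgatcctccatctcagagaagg
Dmd, upstream start, chrX:82948620-82948869, plus strand: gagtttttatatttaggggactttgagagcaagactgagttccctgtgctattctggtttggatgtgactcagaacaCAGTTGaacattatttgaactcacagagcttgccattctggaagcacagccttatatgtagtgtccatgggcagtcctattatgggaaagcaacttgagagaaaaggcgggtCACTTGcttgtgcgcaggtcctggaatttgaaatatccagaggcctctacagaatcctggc
Dmd, downstream start, chrX:85048045-85048294, plus strand: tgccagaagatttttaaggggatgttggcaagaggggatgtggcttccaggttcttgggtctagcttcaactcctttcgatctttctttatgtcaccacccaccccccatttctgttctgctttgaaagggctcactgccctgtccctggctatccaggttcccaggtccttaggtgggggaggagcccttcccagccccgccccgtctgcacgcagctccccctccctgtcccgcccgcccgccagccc
Dag1, chr9:108263959-108264208, minus strand: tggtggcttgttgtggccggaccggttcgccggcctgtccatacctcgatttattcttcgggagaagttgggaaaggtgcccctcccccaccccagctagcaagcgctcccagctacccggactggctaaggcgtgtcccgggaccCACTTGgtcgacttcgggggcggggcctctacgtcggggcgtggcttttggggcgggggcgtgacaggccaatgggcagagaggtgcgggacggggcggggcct

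Of the 8 genes, 6 had promoters in the RefSeq set, with 8 starts in all, and Sntb1 and Dtna had none. Sgca held 1 E-box and 4 CpG, the dinucleotide whose methylation Uhrf1 maintains, and 37.8% of 32851 promoters held fewer CpG. The upstream start of Dmd held 2 E-boxes and 2 CpG, the downstream start 0 E-boxes and 7 CpG. The Dag1 promoter shown held 1 E-box and 21 CpG, more than 83.7% of promoters. The window before the other Dag1 start, at 108263815, held 1 E-box and 36 CpG, more than 97.4% of promoters. Sgcb held 0 E-boxes and 14 CpG, and Sgcd 2 E-boxes and 9 CpG. Utrn, at the start at 12861735 on chromosome 10, held 7 E-boxes and 2 CpG, and 0.0761% of promoters held as many E-boxes or more. That start lies inside the gene: Utrn-205, Utrn-211 and Utrn-212 begin further upstream, at 12869365, 12868171 and 12868281. No window was read before those starts. Over all promoters, 66.2% held at least 1 E-box and 31.8% at least 2, and the median was 6 CpG. No methylation values were used here, and these counts describe letters only.

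By position on GRCm38 (GENCODE M21), Dmd lies on chromosome X from 82948870 to 85206141, plus strand, and spans 2257 kb. Its protein-coding transcripts are Dmd-203, which begins at 82948903, and the shorter Dmd-201 and Dmd-202, which begin at 85048413. Values are per gene, so long and short forms cannot be told apart. The other genes named here lie on the minus strand. Utrn lies on chromosome 10 from 12382188 to 12869365, and Dag1 on chromosome 9 from 108204634 to 108263958. Sgca lies on chromosome 11 from 94962791 to 94976327, Sgcb on chromosome 5 from 73632749 to 73647790, Sgcd on chromosome 11 from 46896253 to 47988969, and Sntb1 on chromosome 15 from 55636388 to 55906949.

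The rest of the complex was read from a list of 9 further genes. Beside the counts of this and the following lists, 9.02% of all genes were called higher and 8.11% lower in Mutant. For PT against PUT these shares were 25.1% and 22.1%. Of the 8 with Mutant against Control values 2 rose and 0 fell, with a median test estimate of 0.11, and of the 6 with PT against PUT values 4 rose and 0 fell, with a median of 0.59. Nos1, the neuronal nitric oxide synthase that docks on syntrophin, rose from 0.496 to 2.01 TPM by the authors' deposited Mutant table (test estimate 2.42, SE 0.53, adjusted p = 8.82e-05). It rose by 2.65 for PT against PUT by the authors' deposited PT table (SE 0.33, adjusted p = 8.34e-15). Epsilon-sarcoglycan (Sgce), an imprinted relative of the alpha subunit found in many tissues, rose from 12.6 to 17.8 TPM by the authors' deposited Mutant table (test estimate 0.42, SE 0.16, adjusted p = 0.0449). It rose by 0.68 in the authors' deposited PT table (SE 0.19, adjusted p = 0.000975). Sarcospan (Sspn, 0.90, SE 0.15) and beta-dystrobrevin (Dtnb, 0.51, SE 0.13) also rose in the authors' deposited PT table. In the authors' deposited Mutant table the test estimates were −0.06 (SE 0.11) for Sspn and 0.09 (SE 0.13) for Dtnb, the highest of the list at 20.1 and 21.4 TPM, and neither passed.

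**Figure D4:**
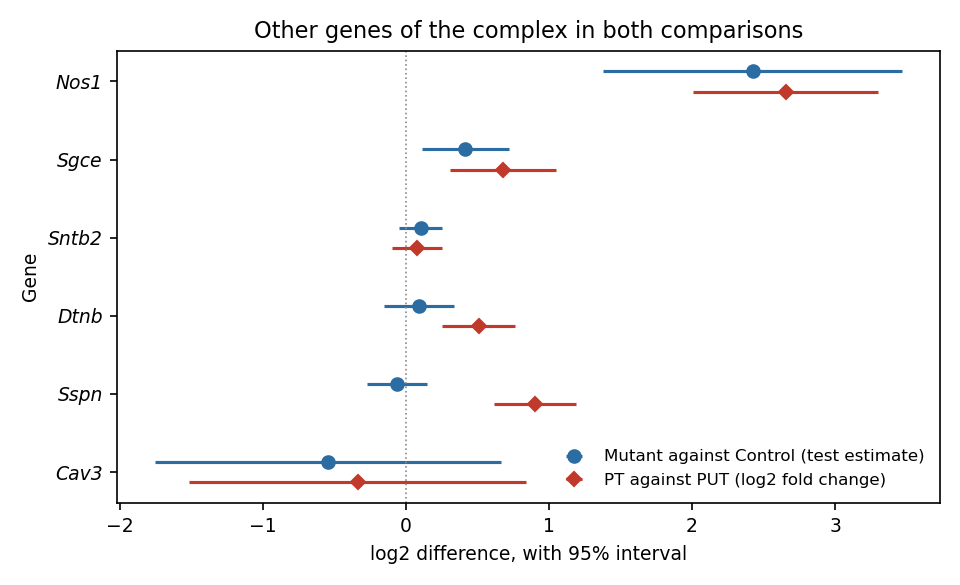
Other genes of the complex with values in both authors' deposited tables, as the test estimate of Mutant against Control (circles) and the PT against PUT log2 fold change (diamonds), each with its 95% interval. Nos1 and Sgce were called higher in both comparisons, and Sspn and Dtnb for PT against PUT.

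Of 15 genes that glycosylate dystroglycan, 1 rose and 0 fell in Mutant, with a median test estimate of 0.19. B3galnt2, a transferase of the laminin-binding chain, rose by its test estimate in the authors' deposited Mutant table (0.31, SE 0.07, adjusted p = 0.000226), while its mean TPM was 61.2 and 63.2. The highest of the list, Dpm3, was at 63.3 and 70.9 TPM and did not pass (0.19, SE 0.19). For PT against PUT 2 of the 15 rose and 5 fell, with a median of −0.15 by the authors' deposited PT table. Dpm2 (0.66) and Rxylt1 (0.55), which the files list as Tmem5, rose. Pomgnt1 (−0.24), Pomk (−0.57), Gmppb (−0.46), Dpm3 (−0.82) and Dolk (−0.49) fell.

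Of 10 matrix ligands of dystroglycan, 3 rose and 1 fell in Mutant. Lama2, the laminin chain of adult muscle basement membrane, went from 36.1 to 49.8 TPM by the authors' deposited Mutant table (0.50, SE 0.07, adjusted p = 8.72e-10). Lamb1 went from 96.2 to 133 TPM (0.45, SE 0.07), and perlecan (Hspg2) from 178 to 196 TPM (0.15, SE 0.05). Biglycan (Bgn), the highest of the list by its overall mean, was at 164 and 223 TPM and did not pass (0.44, SE 0.19, adjusted p = 0.114). Lama4 fell from 1.42 to 0.543 TPM by the authors' deposited Mutant table (−1.16, SE 0.37). For PT against PUT 2 of the 10 rose and 4 fell by the authors' deposited PT table: Lama4 (2.10) and Bgn (1.27) rose, and Lamb1 (−0.35), Lamb2 (−0.84), Lamc1 (−0.31) and Agrn (−0.80) fell. Lamb1 and Lama4 were thus called in opposite directions in the 2 comparisons, and Lama2 did not pass for PT against PUT (−0.19, SE 0.08).

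Of 9 cytoskeletal genes 0 rose and 1 fell in Mutant. Filamin C (Flnc), which binds sarcoglycans, went from 282 to 235 TPM by the authors' deposited Mutant table (−0.26, SE 0.07, adjusted p = 0.000873). The highest of the list, Actb, was at 6350 and 6748 TPM (0.05, SE 0.06). For PT against PUT 0 of the 9 rose and 4 fell by the authors' deposited PT table: Flnc (−0.62), plectin (Plec, −0.75), Actg1 (−0.28) and Sync (−0.73). Of 7 genes of satellite cell polarity 1 rose and 2 fell in Mutant. Pard6g rose from 9.44 to 12.2 TPM by the authors' deposited Mutant table (0.35, SE 0.13). Prkci, an atypical protein kinase C of the Par complex, fell from 71.3 to 52.5 TPM (−0.37, SE 0.07), and Carm1, an arginine methyltransferase, from 85.8 to 66.0 TPM (−0.34, SE 0.06). Mark2, the polarity kinase that dystrophin binds, was at 49.4 and 45.1 TPM and did not pass (0.02, SE 0.07). For PT against PUT 1 of the 7 rose (Carm1, 0.21) and 4 fell by the authors' deposited PT table: Prkci (−0.20), Mark2 (−0.25), Pard3 (−0.39) and Mapk12 (−1.02). Over these 5 lists, 7 of 49 genes rose and 4 fell in Mutant, and 9 of 47 rose and 17 fell for PT against PUT. Of all genes, 17.1% were called in Mutant and 47.2% for PT against PUT.

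Of 18151 genes in both tables, those nearest to Dmd over the log2 levels of Control and Mutant, the test estimate and the PT against PUT value, each divided by its SD, were Gm17131, Lgr4, Fzd3, Tmem243 and Gm10033, at distances of 0.0779 to 0.112. Lgr4, a receptor for R-spondins, had 8.15 and 9.56 TPM in Control and Mutant and 1.18 for PT against PUT (SE 0.15) by the authors' deposited tables. Fzd3, a Wnt receptor, had 8.50 and 10.5 TPM and 1.30 (SE 0.12). Gm17131 was the nearest, but its PT against PUT value of 1.27 had an SE of 1.37. This likeness rests on 4 summary values per gene.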

How the data were processed

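The authors deposited 2 gene tables. Mutant against Control holds mean TPM, a log2 fold change, SE, statistic (a score), p-value and adjusted p-value. PT against PUT holds, per the file headers, mean normalised counts (a signal), log2 fold change, SE, score, p-value and adjusted p-value. Repeat counts per library, as deposited by the authors, gave the library check. The submitters' processing notes name STAR 2.7.6a (HISAT2 2.2.1 for Cre Control), Trim Galore 0.6.6, featureCounts 2.0.1, DESeq2 and the builds GRCm38 and mm10, with no role or order. Gene depth per library is unknown, and the strand setting of the counting is not stated.

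Computed here (Python 3.11.15, pandas 2.3.3, scipy 1.17.1) were test estimates, 95% intervals (estimate ± 1.96 SE, normal), list counts, SE among genes of like level, promoter counts, and library weights behind the deposited repeat means (non-negative least squares, 1093 subfamilies). Deposited log2 values matched TPM plus 1 ratios within 4.79e-08. Adjustment and weight steps were tested on simulated data. GENCODE M21 held 22497 and 27681 genes of the tables. Members and lists were chosen with earlier results of these data known. Some genes of 2 lists are not reported here, and list counts leave them out. Named genes were the members, list genes called or highest, Dmd's 5 nearest genes and Uhrf1. Of marker lists, those called in Mutant are named, but not all of the 2 highest that the rule also takes. Hils1 and the other marker genes were added after their values were seen. Alternatives were other thresholds, adjustments, pseudocounts and centring.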

Additional observations from a re-analysis of the deposited data

How the results depend on the processing

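At an adjusted p below 0.01, 1 of the 8 genes (Sgca) was called for Mutant against Control instead of 3, and Utrn and Sntb1 were not. Of all genes, 12.7% were called at that threshold, 20.2% below 0.1 and 30.5% after the filter on low levels, beside 17.1% as deposited. The shares were 39.4%, 52.5% and 62.7% for PT against PUT, beside 47.2%. Below 0.1, and with the adjustment recomputed over all genes or over those of at least 1 TPM (mean count of at least 10 for PT against PUT), Sgca, Sntb1 and Utrn were called each time. For PT against PUT the same 5 genes were called under each of these. Over the 5 further lists, 7 genes were called for Mutant against Control below 0.01 instead of 11, and 10 or 11 under the other alternatives. For PT against PUT these counts ran from 24 to 29. A pseudocount of 0.1, the test estimate and centring on the median gene gave 32 values for the 8 genes, none with another direction. The deposited pseudocount of 1 understates low genes: Sgcd was at −0.51 by the deposited ratio and −1.10 by the test estimate.

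No paired analysis was possible because the gene tables hold no values per library. For the same reason the planned count models were not run, no library was left out, and the effect of the library labelled Control 3 on the 8 genes was not tested.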

Other observations

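Some annotated neighbours within the bounds of the 8 genes had values of their own. Gm12176, a processed pseudogene on the strand opposite to Sgcd, was at 0.141 TPM in Control and listed at 0 in Mutant in the authors' deposited table, but had a mean normalised count of 1086 in the PT against PUT table, where Sgcd had 5.92. Gm7525, a processed pseudogene opposite to Utrn, was at 2.64 and 4.01 TPM (test estimate 0.57, SE 0.78) and was called higher in PT against PUT (2.48, SE 0.36, adjusted p = 2.54e-11) in the authors' deposited tables, while Utrn was called lower there. Both were chosen after their values were seen.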
